A study of Mus musculus with 24 samples.

Results

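The cytosolic ribosomal protein genes encode the proteins of the small and large subunits of the ribosome that translates nuclear mRNAs. Here they were the 80 genes, of 32884 in the expression table, whose symbol follows the pattern Rpl or Rps with a number, Rplp0 to Rplp2, or Rpsa, and whose mean level was at least 0.5 FPKM (fragments scaled by transcript length and library size). Levels came from mouse spinal cord after spared nerve injury (SNI), a neuropathic pain model in which the common peroneal and tibial branches of the sciatic nerve are ligated and cut and the sural branch is left intact. The 4 groups were SNI at day 3, day 7 and day 14 and a sham group labelled day 3, in which the nerve was exposed and left uncut. Each group had 3 input libraries of poly(A) RNA, 12 in all, and 3 libraries enriched with an antibody against N6-methyladenosine (m6A), reported as 1 peak list per group. Strain, sex and age are not given in the labels. Nothing states that libraries sharing a group are from separate animals, so every p-value measures only how far libraries spread, and that spread may be technical. All 3 SNI groups were compared with a sham group of 1 day only.

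Ribosomal protein mRNAs are among the most abundant transcripts of any cell, and their products are needed in near-equal amounts, since each ribosome holds most of them once. Many of these mRNAs begin with a C followed by a run of pyrimidines at the 5′ end, the TOP (terminal oligopyrimidine) motif, through which the kinase complex mTORC1 and the RNA-binding protein LARP1 control their translation. In spinal cord and sensory neurons, mTORC1 signalling and local translation have been studied as parts of the response to nerve injury. Protein and translation were not measured here.

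The TOP letters could be read at the annotated starts of members that have a RefSeq promoter entry (build GRCm38.p6), which 58 of the 80 had. The 6 windows below are from genes that recur in the results, and a pyrimidine run within 5 bases of the start was required for showing them. Members described below that lack such a run, such as Rplp0, Rpl13 and Rps15, are not shown. Rplp2 belongs to the stalk, Rps21 fell among the furthest in 2 libraries that stand apart, and Rpl35 went the other way in those 2. Rps6, Rpl38 and Rpl28 carry m6A peaks in every group. Each window runs 5′ to 3′ on the gene's strand, from 70 bases before the annotated start through the 20 bases that begin at it. Capitals mark the C and the pyrimidines that follow it, and the ETS/GABPA letters CCGGAAG where they occur.
Rplp2 (chr7:141447581-141447670, plus strand): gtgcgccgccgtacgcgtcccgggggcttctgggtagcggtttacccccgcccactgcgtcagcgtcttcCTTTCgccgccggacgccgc
Rps21 (chr2:180257309-180257398, plus strand): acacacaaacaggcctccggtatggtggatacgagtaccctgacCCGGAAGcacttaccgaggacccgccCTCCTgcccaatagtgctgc
Rps6 (chr4:86857348-86857437, minus strand): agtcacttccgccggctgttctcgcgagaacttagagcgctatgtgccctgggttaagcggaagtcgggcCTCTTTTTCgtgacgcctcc
Rpl38 (chr11:114668510-114668599, plus strand): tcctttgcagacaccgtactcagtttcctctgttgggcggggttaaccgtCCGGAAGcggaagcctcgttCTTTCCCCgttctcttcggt
Rpl28 (chr7:4792895-4792984, plus strand): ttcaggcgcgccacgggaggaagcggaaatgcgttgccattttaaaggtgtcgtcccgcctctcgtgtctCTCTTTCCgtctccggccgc
Rpl35 (chr2:39005112-39005201, minus strand): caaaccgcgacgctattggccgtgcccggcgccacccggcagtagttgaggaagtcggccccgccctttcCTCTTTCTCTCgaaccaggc

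In all 6 windows the run, whose presence was required, began at the annotated start itself. It was 5 bases long in Rplp2 and Rps21, 8 in Rpl38 and Rpl28, 9 in Rps6 and 11 in Rpl35. A C followed by at least 4 C or T bases and lying within 5 bases of the start was present in 29 of the 58 members (50.0%), against 21.2% of the 27025 genes with an entry and 23.8% of tested genes outside the group. CCGGAAG, searched on both strands over the 250 bases before and 50 after the start, was present in 24 members (41.4%), against 9.93% of all genes with an entry and 18.5% of tested genes outside the group. The YY1 letters AAGATGG were found in 9 members (15.5%, all genes 7.28%), GGGCGG (SP1) in 35 (60.3%, all genes 38.2%), TATAAA in 7 (12.1%, all genes 15.7%) and CACGTG (E box) in 6 (10.3%, all genes 8.09%). Against tested genes outside the group the order turned for 3 of these. Among those genes GGGCGG was present in 68.3%, TATAAA in 8.67% and CACGTG in 11.5%. These are matches of letters and not mapped binding sites. Members with and without the pyrimidine run had similar medians: mean levels of 53.5 and 53.1 FPKM, and day 3 log2 fold changes of 0.18 and 0.16 in the 10 libraries described next.

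Sham library 3 and day 7 library 3 stood apart from the other 10 libraries over all genes. By the median size of the log2 difference from the rest of their group, members (0.44 in sham, 0.33 on day 7) were close to all genes (0.39 and 0.36), but more of the members were lower. The summed level of the members was 5555 and 5602 FPKM in sham libraries 1 and 2 and 4217 FPKM in sham library 3, which is 24.4% lower than their mean. On day 7 it was 6044, 5998 and 4614 FPKM, with library 3 23.4% below the mean of the other libraries. FPKM summed over all genes was itself lower in these 2 libraries (180340 and 181738, against 197878 to 201358 in the other 10). As a share of it, members made up 2.34% in sham library 3, against 2.77% and 2.81%, and 2.54% in day 7 library 3, against 3.05% and 3.01%. Sums were 6367, 6348 and 6369 FPKM on day 3 and 6063, 6049 and 6003 FPKM on day 14, so other libraries of a group lay close together. Results below are therefore given for all 12 libraries and for the 10 without those 2. Summed markers in these 2 libraries against the other 10 were 861 to 958 against 1156 to 1216 FPKM for 6 of 6 neuronal genes, and 22.0 to 22.1 against 27.3 to 33.6 FPKM for 3 of 3 endothelial genes. For 4 of 4 astrocyte genes they were 640.1 to 786 against 498 to 605 FPKM, and for 4 of 4 oligodendrocyte genes 3422 to 3838 against 3294 to 4216 FPKM. For 3 of 3 sensory ganglion genes they were 23.4 to 24.1 against 43.0 to 53.3 FPKM, nearly all of it Prph (mean 43.2 FPKM), with Isl1 at 0.601 and Scn10a at 0.00256 FPKM. The counts are of listed genes found, and only sums were compared. Nefl and Snap25 (means 678 and 359 FPKM) made up most of the neuronal sum, and Gfap (342 FPKM) most of the astrocyte sum. Neuronal, endothelial, astrocyte and sensory ganglion ranges did not overlap, and the part of cell make-up or RNA quality in the difference was not tested.

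**Figure D1:**
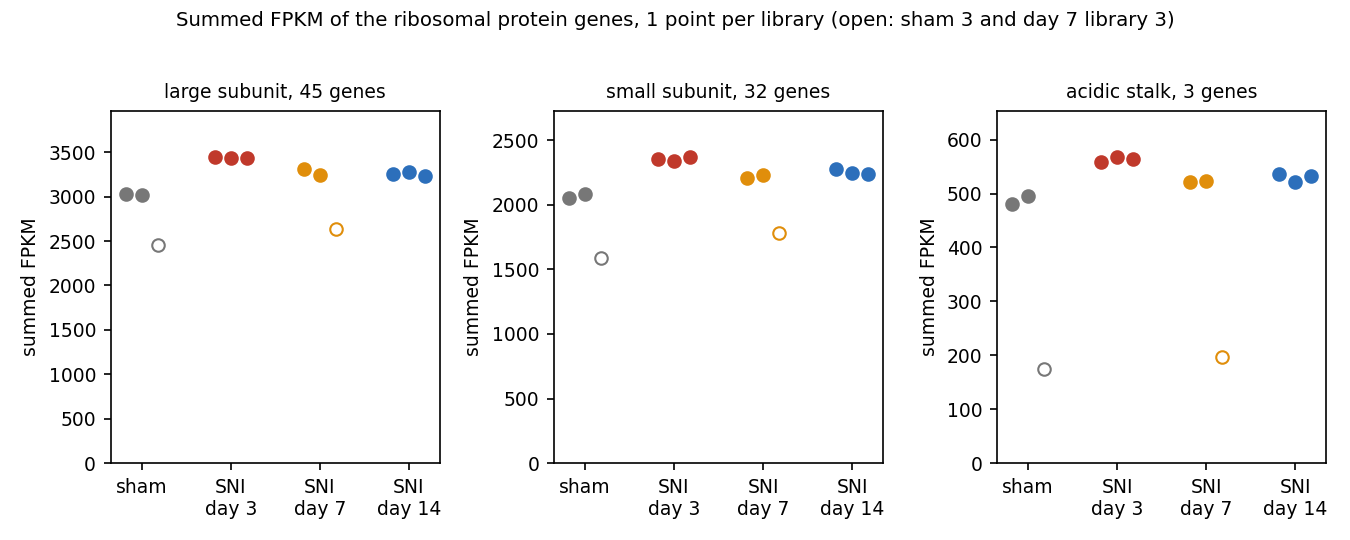
Summed FPKM of large subunit (45), small subunit (32) and stalk genes (3) in each of the 12 input libraries, with 1 point per library and axes that start at 0. Open points are sham library 3 and day 7 library 3, which lie below the other libraries of their group in all 3 panels; the total over the 80 genes was 4217 and 4614 FPKM in them and 5555 to 6369 FPKM in the others.

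Most ribosomal protein genes stood a little above sham after injury, and furthest on day 3, though no single gene passed the test when all 12 libraries were used. Without the 2 libraries, the summed level was 14.0% above sham on day 3, 7.93% above on day 7 and 8.24% above on day 14. By group means over the 10 libraries, 67 of 80 members were highest on day 3 and 73 were lowest in sham, against 27.6% and 33.8% of all 15564 genes tested. In bulk tissue, more mRNA per cell and more cells that express these genes strongly cannot be told apart. Summed microglial markers (5 of 5 detected) were 45.3 to 55.8 FPKM in sham, 70.9 to 72.7 on day 3, 72.9 to 82.0 on day 7 and 63.4 to 64.9 on day 14. Summed globin and other erythroid genes (5 of 5 detected) were 189 to 318 FPKM in sham, 424 to 517 on day 3, 571 to 693 on day 7 and 355 to 369 on day 14. Both sums, over all 12 libraries, were above sham on all 3 days and highest on day 7. The microglial value of 82.0 FPKM is that of day 7 library 3. Without that library the day 7 range was 72.9 to 74.1 FPKM, close to day 3. The order of the members was taken over 10 libraries, and the part of either cell type in their difference was not tested.

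With all 12 libraries, no member passed the test in any of the 6 contrasts between groups (limma on log2(FPKM + 0.5), Benjamini-Hochberg adjusted p below 0.05). The shares of all genes called were 0.0578% on day 3, 0.103% on day 7 and 0.0514% on day 14 against sham, 0.0129% for day 7 against day 3, 0.0321% for day 14 against day 7 and 0.0129% for day 14 against day 3. At an unadjusted p below 0.05 there were 34 members on day 3 (42.5%; all genes 6.24%), 3 on day 7 (all genes 2.53%) and 9 on day 14 (all genes 4.92%) against sham. Between SNI days there were 4 for day 7 against day 3 (all genes 4.05%), 0 for day 14 against day 7 (4.46%) and 1 for day 14 against day 3 (1.75%). The members' median log2 fold change against sham was 0.31 on day 3, 0.12 on day 7 and 0.23 on day 14, beside 0.03, 0.01 and 0.03 over all genes. All 3 day 3 libraries lay above all 3 sham libraries for 62 members (77.5%; all genes 13.4%). For day 7 this held for 8 members (all genes 2.78%) and for day 14 for 49 (61.3%; all genes 12.2%).

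Without sham library 3 and day 7 library 3, 51 members rose on day 3 (63.8%; all genes called higher 4.01%), 9 on day 7 (11.3%; all genes 0.732%) and 20 on day 14 (25.0%; all genes 2.42%), and none fell. Of genes of at least 10 FPKM, 9.95%, 1.81% and 5.78% were called higher on days 3, 7 and 14. The 51 members were 19 of 32 small subunit genes, 29 of 45 large subunit genes and all 3 stalk genes. Median log2 fold changes were 0.19, 0.10 and 0.10, beside 0.02, 0.01 and 0.02 over all genes, and on day 3 the called members ranged from 0.08 to 0.58. These calls rest on 2 sham libraries that are nearly identical to each other. When near-identical libraries of a group were averaged into 1 sample (6 samples in all), the medians were 0.38, 0.12 and 0.30. Days 3 and 14 then had 1 sample each, too few to test any gene, so only these medians are given. The day 7 median depended on which library was left out: it was -0.01 without sham library 3 alone and 0.23 without day 7 library 3 alone.

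**Figure D2:**
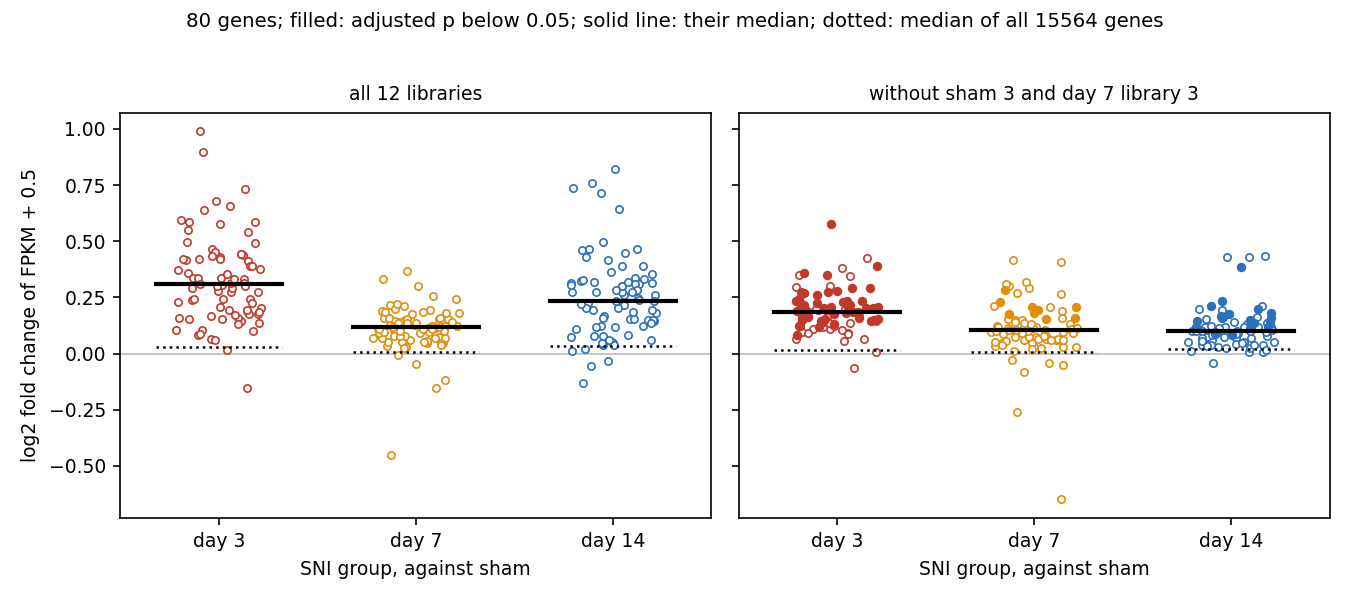
Log2 fold change of FPKM + 0.5 against sham for each of the 80 genes on days 3, 7 and 14, with all 12 libraries (left) and without sham library 3 and day 7 library 3 (right). Filled points passed the test, solid lines are the members' medians (0.31, 0.12 and 0.23 on the left; 0.19, 0.10 and 0.10 on the right) and dotted lines the medians of all 15564 genes. No point on the left is filled, and 51, 9 and 20 are filled on the right.

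The stalk proteins recruit elongation factors to the ribosome. Rplp1 (chr9:61913284-61914542, minus strand) had the highest mean of all members, with 345, 362 and 87.1 FPKM in sham, 408, 419 and 414 on day 3, 380.0, 382 and 96.5 on day 7, and 399.5, 383 and 394 on day 14. Library 3 of sham and of day 7 were thus about as low as each other and far below every other library. Its day 3 log2 fold change was 0.90 ± 0.59 (SE) with all libraries (limma adjusted p = 0.69) and 0.23 ± 0.024 without the 2 (adjusted p = 0.0011). Rplp0, the protein on which the stalk is built and a common reference gene for quantitative PCR, was at 105, 104 and 71.5 FPKM in sham, 117, 114 and 114 on day 3, 112, 109 and 82.4 on day 7, and 107, 110.0 and 106 on day 14. The day 3 values lay above every sham value, with a log2 fold change of 0.32 ± 0.15 (adjusted p = 0.69) and, without the 2 libraries, 0.13 ± 0.021 (adjusted p = 0.0087). Rplp2 was at 30.0, 28.9 and 16.9 FPKM in sham and 33.4, 35.1 and 35.5 on day 3, while days 7 (29.8, 31.7, 17.9) and 14 (30.6, 29.0, 31.96) overlapped sham. Its day 3 log2 fold change was 0.50 ± 0.24 (adjusted p = 0.69), and 0.23 ± 0.046 without the 2 libraries (adjusted p = 0.021).

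Among small subunit genes, the clearest difference with all 12 libraries was that of Rps27a, which encodes a fusion of ubiquitin with a ribosomal protein (chr11:29545846-29548109, minus strand). It was at 46.4, 38.6 and 37.2 FPKM in sham, 69.0, 60.9 and 60.8 on day 3, 55.7, 57.0 and 45.5 on day 7, and 51.7, 55.5 and 59.2 on day 14. Day 3 and day 14 lay wholly above sham, and day 7 overlapped it by library 3 alone. The day 3 log2 fold change was 0.64 ± 0.11 with an adjusted p of 0.11, the smallest of any member by limma, and 0.58 ± 0.087 (adjusted p = 0.0066) without the 2 libraries. A processed copy listed as Rps27a-ps2 had a mean of 33.4 FPKM, so the split of reads between them is uncertain. Rps15, whose tail reaches the decoding site, was at 265, 269.9 and 248 FPKM in sham, 317, 303 and 308 on day 3, 295, 293 and 272 on day 7, and 305, 300.0 and 289.9 on day 14, with all SNI libraries above all sham libraries. Its log2 fold changes were 0.24, 0.14 and 0.19 (SE 0.06; adjusted p = 0.40, 1 and 0.70). Rpsa, also known as the laminin receptor precursor, was at 106, 103 and 77.1 FPKM in sham and 117, 118 and 116 on day 3, and at 106, 107 and 108 on day 14. Its day 3 log2 fold change was 0.31 ± 0.12 (adjusted p = 0.69), or 0.16 ± 0.025 without the 2 libraries (adjusted p = 0.0073).

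Rps29, a small zinc-binding protein, had the largest day 3 fold change with all libraries and the smallest p without the 2 (chr12:69157722-69159186, minus strand). It was at 127, 133 and 36.9 FPKM in sham, 170.3, 172 and 169 on day 3, 149, 148 and 44.3 on day 7, and 148, 142 and 147 on day 14. Leaving out library 3 of sham and of day 7, the groups did not overlap with sham and day 3 lay above both later days. The day 3 log2 fold change was 0.99 ± 0.52 (adjusted p = 0.69) with all libraries and 0.39 ± 0.024 (adjusted p = 6.8e-05) without them. Rps24, one of the genes mutated in Diamond-Blackfan anaemia in people, rose by 0.19 ± 0.016 on day 3 (adjusted p = 0.00049) and 0.12 ± 0.016 on day 14 (adjusted p = 0.0057) without the 2 libraries. With them its sham values of 39.7, 40.1 and 47.3 FPKM overlapped those of day 3 (45.4, 46.0, 45.1), and the day 3 fold change was 0.11 ± 0.09 (adjusted p = 0.69). Rps4x, the X-linked form of a small subunit protein, was at 84.4, 87.1 and 88.3 FPKM in sham and 99.5, 99.3 and 97.0 on day 3, so here library 3 of sham was not low; the fold change was 0.19 ± 0.05 with all libraries (adjusted p = 0.57) and 0.20 ± 0.020 without the 2 (adjusted p = 0.00084). Rps6, the substrate of S6 kinase that is often used to read mTORC1 activity, was not called: it was at 161, 157 and 168 FPKM in sham and 167, 175 and 175 on day 3, a log2 fold change of 0.11 ± 0.033 (adjusted p = 0.087) without the 2 libraries.

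Among large subunit genes, Rpl3, whose product lies next to the peptidyl transferase centre, was close to its group in the libraries that stood apart (chr15:80077791-80091868, minus strand). It was at 100.4, 101 and 96.2 FPKM in sham, 118, 119 and 115 on day 3, 105, 106 and 97.5 on day 7, and 107, 108 and 108 on day 14. Day 3 lay above every other library of the study. Its day 3 log2 fold change was 0.24 ± 0.06 (adjusted p = 0.33) with all libraries and 0.22 ± 0.016 (adjusted p = 0.00022) without the 2. Rpl13a, known in human cells also for silencing the translation of inflammatory mRNAs, was at 102, 99.9 and 86.7 FPKM in sham, 118, 119.6 and 117 on day 3, 111, 113 and 96.3 on day 7, and 119, 115 and 118 on day 14. Without the 2 libraries its log2 fold changes were 0.23, 0.16 and 0.21 on the 3 days (adjusted p = 0.00048, 0.013 and 0.00073), so day 14 stood about as high as day 3. Rpl31 was at 72.3, 72.6 and 44.4 FPKM in sham and 92.3, 91.6 and 93.8 on day 3, a rise of 0.35 ± 0.030 (adjusted p = 0.00047) without the 2 libraries and a difference of 0.58 ± 0.20 (adjusted p = 0.69) with them. Rpl13, called on all 3 days without the 2 libraries, had a day 3 rise of 0.22 ± 0.019 (adjusted p = 0.00052).

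Rpl38, known in the mouse for its part in the translation of Hox mRNAs, was as high on day 7 as on day 3 in libraries 1 and 2. It was at 121, 121 and 82.2 FPKM in sham, 138, 144 and 145 on day 3, 148, 146 and 82.8 on day 7, and 126, 137 and 131 on day 14. Its log2 fold change against sham was 0.24 ± 0.033 (adjusted p = 0.0044) on day 3, 0.28 ± 0.036 (adjusted p = 0.0084) on day 7 and 0.12 ± 0.033 (adjusted p = 0.087) on day 14 without the 2 libraries. Rpl24, which forms a bridge between the subunits, and Rps15 rose by 0.17 ± 0.026 and 0.16 ± 0.024 on day 14 (both adjusted p = 0.011), and Rplp1 by 0.15 ± 0.024 (adjusted p = 0.012). Rpl35, whose product lies by the exit of the peptide tunnel, and Rpl23 rose by 0.21 ± 0.036 (adjusted p = 0.035) and 0.23 ± 0.031 (adjusted p = 0.012) on day 7. Rpl21, which had one of the 3 smallest p-values on day 7 with all libraries, was at 13.0, 11.9 and 15.7 FPKM in sham and 14.0, 17.3 and 17.4 on day 7, overlapping groups with a log2 fold change of 0.25 ± 0.11 (adjusted p = 1). The one member below sham on day 3 was Rpl23a, at 144, 124 and 161 FPKM in sham and 126, 122 and 134 on day 3, with a log2 fold change of -0.15 ± 0.11 (adjusted p = 0.69), and -0.06 ± 0.073 (adjusted p = 0.67) without the 2 libraries.

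At the ends of the range, Rplp1, Rps15 and Rpl19 had the highest means (339, 289 and 241 FPKM), and Rpl32l, Rps27l and Rps20 the lowest (0.624, 8.63 and 11.1 FPKM). Rpl19 was at 236, 242 and 206 FPKM in sham and 249, 255 and 257 on day 3, which do not overlap; its log2 fold change was 0.16 ± 0.07 (adjusted p = 0.69) with all libraries and 0.08 ± 0.019 (adjusted p = 0.035) without the 2. Rps20 was at 11.3, 11.7 and 7.00 FPKM in sham and 12.5, 12.2 and 12.7 on day 3, with 0.11 ± 0.036 (adjusted p = 0.12) without the 2 libraries. Rps27l, a paralog of Rps27 that p53 induces in human cells, was at 7.86, 7.78 and 8.09 FPKM in sham and 9.40, 10.1 and 7.74 on day 7, and was not called (0.15 ± 0.10 on day 3, adjusted p = 0.69). Rps4l was at 22.1, 22.0 and 10.7 FPKM in sham and 25.3, 25.8 and 25.3 on day 3, a log2 fold change of 0.54 ± 0.31 (adjusted p = 0.69) with all libraries and 0.21 ± 0.037 (adjusted p = 0.014) without the 2. Rpl3l and Rpl39l match the naming pattern at 0.276 and 0.0304 FPKM and were left out by the level filter.

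Between SNI days, the differences ran downward from day 3. Without the 2 libraries, 11 members were lower on day 7 than on day 3 (13.8%; all genes called lower 0.874%) and 16 were lower on day 14 than on day 3 (all genes 1.05%), while 1 member, Rpl38, was lower on day 14 than on day 7 (all genes 1.61%). No member was higher in any of these 3 contrasts. Of genes of at least 10 FPKM, 2.46%, 3.08% and 4.51% were called lower in them, in the same order. Rps29 was lower than on day 3 by a log2 fold change of -0.19 ± 0.024 on day 7 (adjusted p = 0.0053) and -0.23 ± 0.021 on day 14 (adjusted p = 0.0024). Rpl3 differed by -0.16 ± 0.016 (adjusted p = 0.0023) and -0.12 ± 0.014 (adjusted p = 0.0053), and Rps14, the gene lost in the 5q- syndrome of people, by -0.17 ± 0.023 (adjusted p = 0.0068) and -0.17 ± 0.020 (adjusted p = 0.0053). Rpl38 differed by -0.16 ± 0.033 from day 7 to day 14 (adjusted p = 0.038). The members' medians were -0.07 for day 7 against day 3, 0.00 for day 14 against day 7 and -0.08 for day 14 against day 3. Day 3 and day 14 hold none of the 2 libraries, and for this pair alone a fit of the 6 libraries of both groups called 9 members lower (all genes called lower 0.585%).

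**Figure D3:**
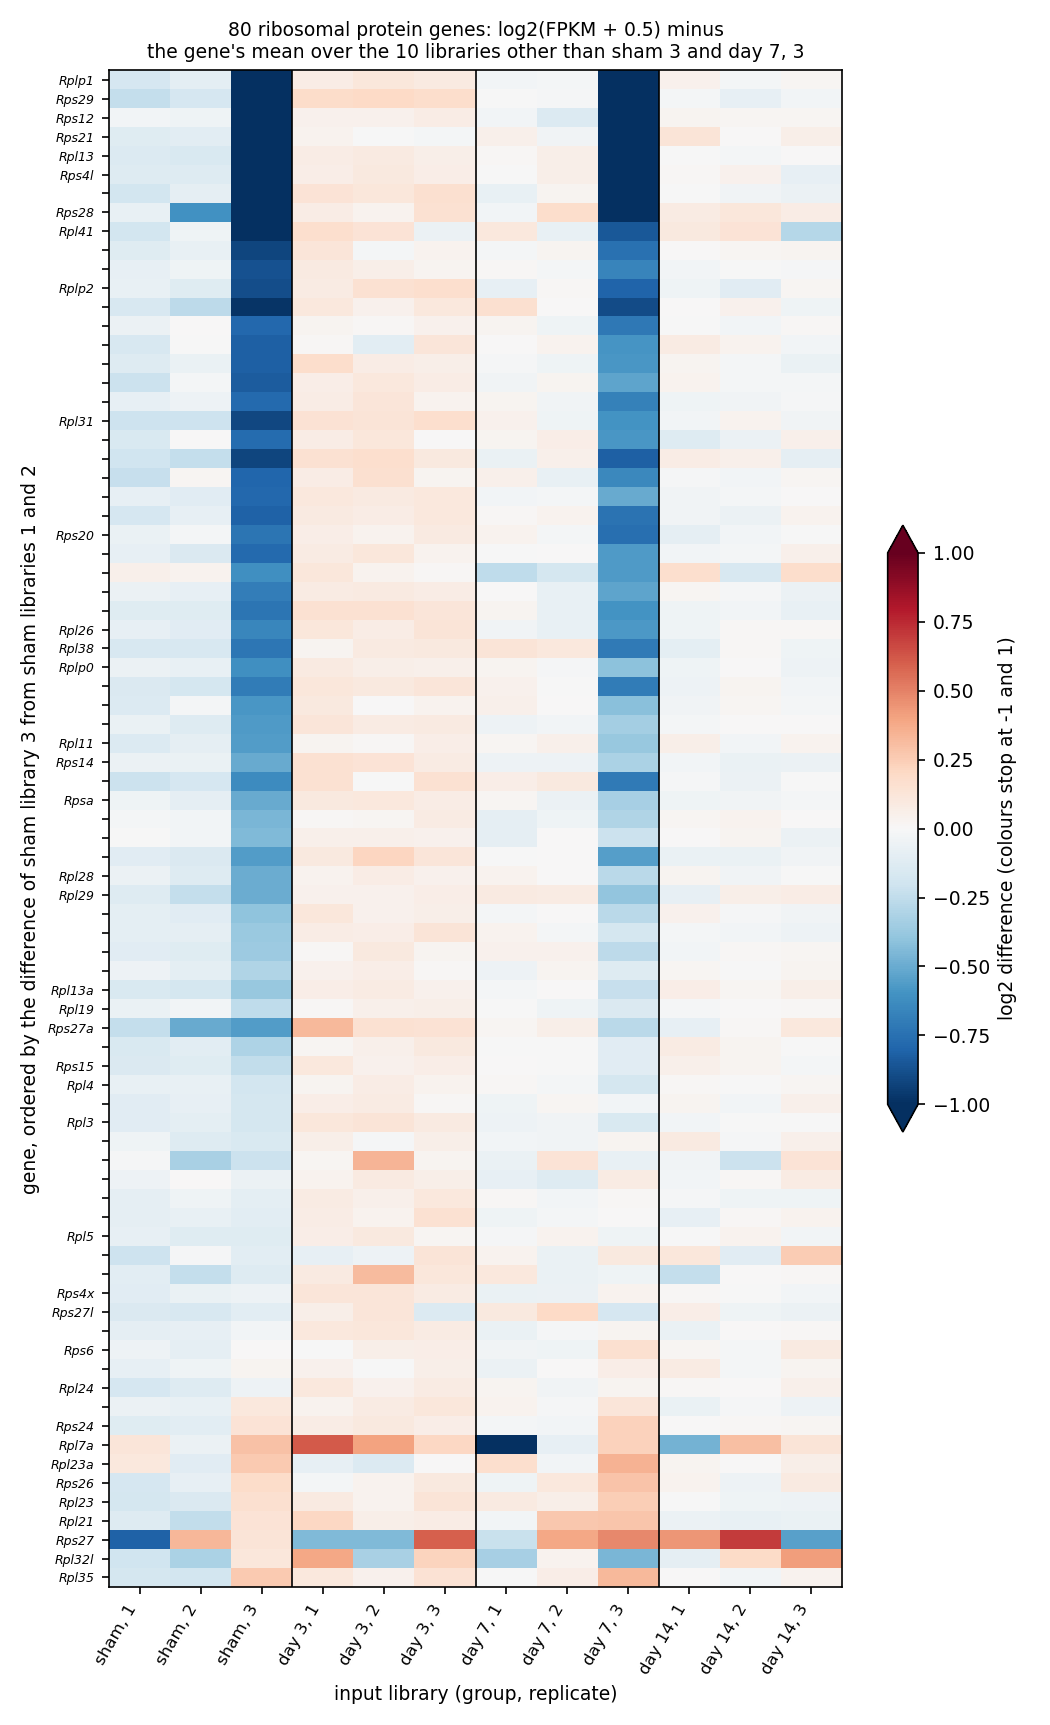
Log2(FPKM + 0.5) of each of the 80 genes (rows) in each of the 12 input libraries (columns), minus the gene's mean over the 10 libraries other than sham 3 and day 7 library 3; rows are ordered by how far sham library 3 lies from sham libraries 1 and 2, and genes described in the text are labelled. Both of these libraries are blue at the top (Rplp1, Rps29, Rps12, Rps21) and pale or red at the bottom (Rpl35, Rpl23), day 3 is pale red in most rows, and Rps27 and Rpl7a vary between libraries of a group.

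The 2 libraries that stood apart were not low by the same amount in every member. The log2 difference between sham library 3 and sham libraries 1 and 2 had a median of -0.43 and ran from -2.02 (Rplp1) to 0.44 (Rpl35), with 62 members below 0 and 18 above, and for day 7 library 3 the median was -0.31. Over all genes the medians were -0.05 and -0.02. Across the 80 genes the 2 sets of differences had a Pearson correlation of 0.94, and across all 15564 genes 0.79, as a description over genes that share their libraries. Rps12 dropped from 33.3 and 32.9 FPKM to 9.44 in sham and from 33.3 and 30.8 to 9.13 on day 7. Rps21 dropped from 115 and 116 to 37.2 FPKM and from 129 and 121 to 48.0. Rpl35 did the opposite, with 61.1, 60.5 and 82.7 FPKM in sham and 68.6, 72.1 and 86.2 on day 7, and so did Rpl23 (52.3, 53.5 and 66.0 FPKM in sham) and Rps26 (55.9, 59.4 and 71.6 FPKM). Compared with each other, these 2 libraries showed the same direction as the rest: day 7 library 3 was above sham library 3 in 73 of 80 members, with a median of 0.13 and a summed level 9.41% higher, and day 7 libraries 1 and 2 were above sham libraries 1 and 2 in 74 of 80, with a median of 0.10. Of all genes, 53.2% and 52.0% were above 0 in these comparisons. The first of them sets 1 library against 1.

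**Figure D4:**
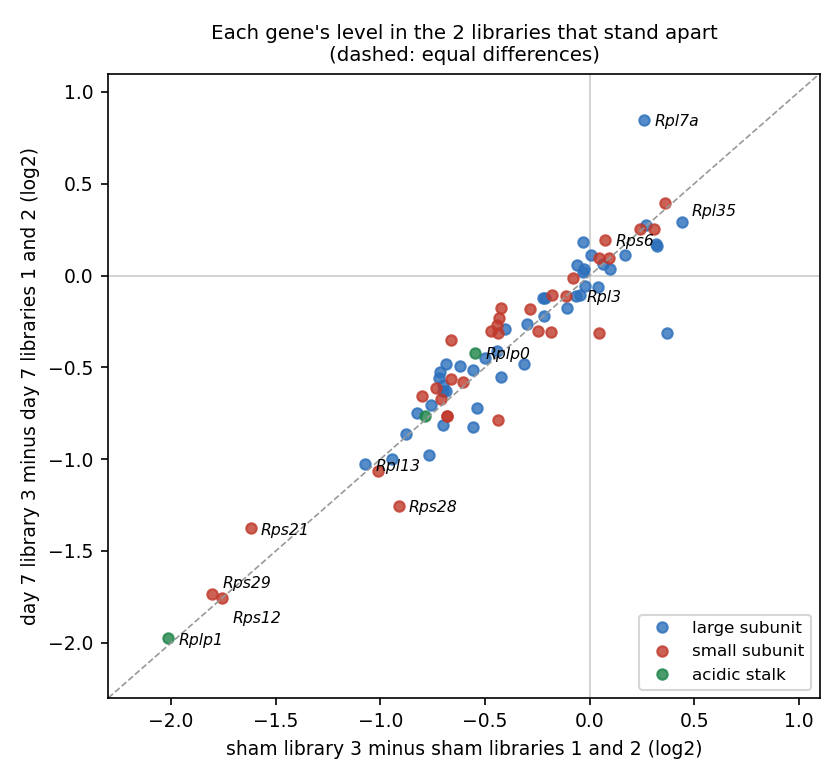
For each of the 80 genes, the log2 difference of sham library 3 from sham libraries 1 and 2 (horizontal) and of day 7 library 3 from day 7 libraries 1 and 2 (vertical), coloured by subunit, with the line of equal differences dashed. Points follow that line from Rplp1 (-2.02 and -1.98) up to Rpl35 (0.44 and 0.29), and Rpl7a lies furthest above it.

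Other lists of genes differed in how low the same libraries were. In sham library 3 the median log2 difference was -0.58 for 76 nuclear genes of the respiratory chain, -0.32 for 78 mitochondrial ribosomal protein genes, -0.07 for 29 translation factors and other TOP mRNAs, and 0.01 for 35 ribosome biogenesis genes. Against sham on day 3 without the 2 libraries, 14 of the 29 translation factors and TOP mRNAs rose and 1 fell, with a median log2 fold change of 0.10, beside 4.01% of all genes and 9.95% of genes of at least 10 FPKM that rose. Eef1a1, the main elongation factor, rose by 0.11 ± 0.011 (adjusted p = 0.00089), Eef1b2 by 0.19 ± 0.030 (adjusted p = 0.0083) and Gas5, a non-coding TOP RNA, by 0.24 ± 0.035 (adjusted p = 0.0064). Eef1a2, the neuronal and muscle form of the elongation factor, fell by 0.06 (adjusted p = 0.040). Of 35 biogenesis genes 4 rose (Ncl, Nop56, Nop58 and Npm1, the last also on the TOP list), of 78 mitochondrial ribosomal protein genes none was called (8 at an unadjusted p below 0.05), and of 76 respiratory chain genes 20 rose, with a median of 0.08. The biogenesis share (11.4%) was near that of genes of at least 10 FPKM. Of 16 mTORC1 and TOP control genes 1 rose (Maf1, the repressor of RNA polymerase III, by 0.19 ± 0.039, adjusted p = 0.025) and 1 fell (Tsc2, an inhibitor of mTORC1, by 0.13, adjusted p = 0.024). Each is 6.25% of that list. Of all genes 4.01% rose and 3.06% fell, and of genes of at least 10 FPKM 9.95% and 6.65%. These 2 calls are thus near the share of all genes and show no change of the list. With all 12 libraries none of the genes on these lists was called on day 3 (limma); at an unadjusted p below 0.05 there were 6, 2, 6, 5 and 2 on the TOP, biogenesis, mitochondrial ribosomal, respiratory chain and mTORC1 lists. The share of all genes at that level was 6.24%, and the biogenesis (5.71%), mitochondrial ribosomal (7.69%) and respiratory chain (6.58%) lists were near it.

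Of 9 tested genes on a list of further ribosomal protein genes and paralogs, 5 rose on day 3 without the 2 libraries (all genes called higher 4.01%). Their median log2 fold change was 0.22 over the whole list. The list includes the members Rps27l and Rps4l, of which Rps4l was among those that rose. The naming pattern missed the rest. Rps3a1 was at 207, 206 and 227 FPKM in sham and 241, 244 and 249.9 on day 3, a rise of 0.24 ± 0.018 (adjusted p = 0.00022) without the 2 libraries and a difference of 0.20 ± 0.07 (adjusted p = 0.69) with them. Fau, which encodes a ribosomal protein fused to a ubiquitin-like protein, rose on day 3 by 0.22 ± 0.025 (adjusted p = 0.0019). Over all 12 libraries, the 5 genes outside the group whose levels followed the members' mean most closely were Smdt1, Eif3i, Calm2, Map2k7 and Akr1a1 (Pearson correlations of 0.992 to 0.986 among 7195 genes of at least 5 FPKM). Both libraries that stood apart enter these correlations. Over the other 10 libraries the 5 were Ubb, Rps3a1, Snrpd1, Tmem119 and Smdt1 (0.971 to 0.964), of which Tmem119 is one of the microglial markers above.

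Ribosomal protein genes have many near-identical processed copies, and the counting could split reads between them. Of the 80 members, 56 had at least 1 copy named after them in the table, 212 in all, and for 11 members the copies summed to more than the member. Rpl21 was at a mean of 14.7 FPKM and Rpl21-ps15 at 182, Rps12 at 29.9 and Rps12-ps3 at 99.4, and Rpl7a at 19.1 and Rpl7a-ps11 at 69.3. Rps27 was at 27.7, 61.7 and 53.3 FPKM in sham and at 35.7, 35.7 and 74.0 on day 3, and its highest value over the 10 libraries was 2.88 times its lowest. Rps27rt, a near copy, often ran the other way, with 131, 45.9 and 21.7 FPKM in sham and 139, 141 and 40.2 on day 3. Both fell from sham library 2 to sham library 3. Their sum was not steady either, at 73.9 to 191 FPKM over the 12 libraries. For Rpl7a the ratio of highest to lowest over the 10 libraries was 3.57, from 7.68 to 27.4 FPKM. No other member had a ratio above that of Rps27. Rpl38, described above for day 7, was at 127 FPKM beside Rpl38-ps2 at 115, Rps10 at 30.8 beside copies that sum to 73.5, and Rpl35a at 16.6 beside 92.9. Levels, fold changes and any m6A peaks of these 7 genes, and of other members whose copies reach a similar level, are therefore uncertain.

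m6A is deposited mostly near stop codons and in 3′ untranslated regions (UTRs), and it can change the stability and translation of an mRNA. A smaller share of ribosomal protein genes than of all tested genes had a peak in each of the 4 lists, which is given as a description. A peak carried the gene's identifier for 27 members in sham (33.8%; all tested genes 74.4%), 55 on day 3 (68.8%; all tested genes 85.5%), 31 on day 7 (38.8%; all tested genes 76.6%) and 50 on day 14 (62.5%; all tested genes 85.1%). Among the 4150 genes with a mean of at least 10 FPKM, members included, the shares were 74.3%, 89.2%, 76.3% and 89.0%. The sham and day 7 groups are those that hold a library standing apart, and with 1 list per group the lists give no replicate check: group and library cannot be told apart, and whether replicates were pooled is not given in the sources used here. With peaks of at least 2-fold enrichment and p at most 1e-05, 20, 24, 21 and 26 members had a peak (25.0%, 30.0%, 26.3% and 32.5%), and the share of members differed less between lists at this threshold. The same shares were 66.9%, 73.0%, 67.8% and 73.2% of all tested genes, and 67.7%, 76.3%, 67.4% and 76.9% of genes of at least 10 FPKM. Median fold enrichment of member peaks was 2.49, 2.10, 2.70 and 2.03, beside 4.28, 3.03, 3.72 and 3.14 for peaks of other genes of at least 10 FPKM.

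**Figure D5:**
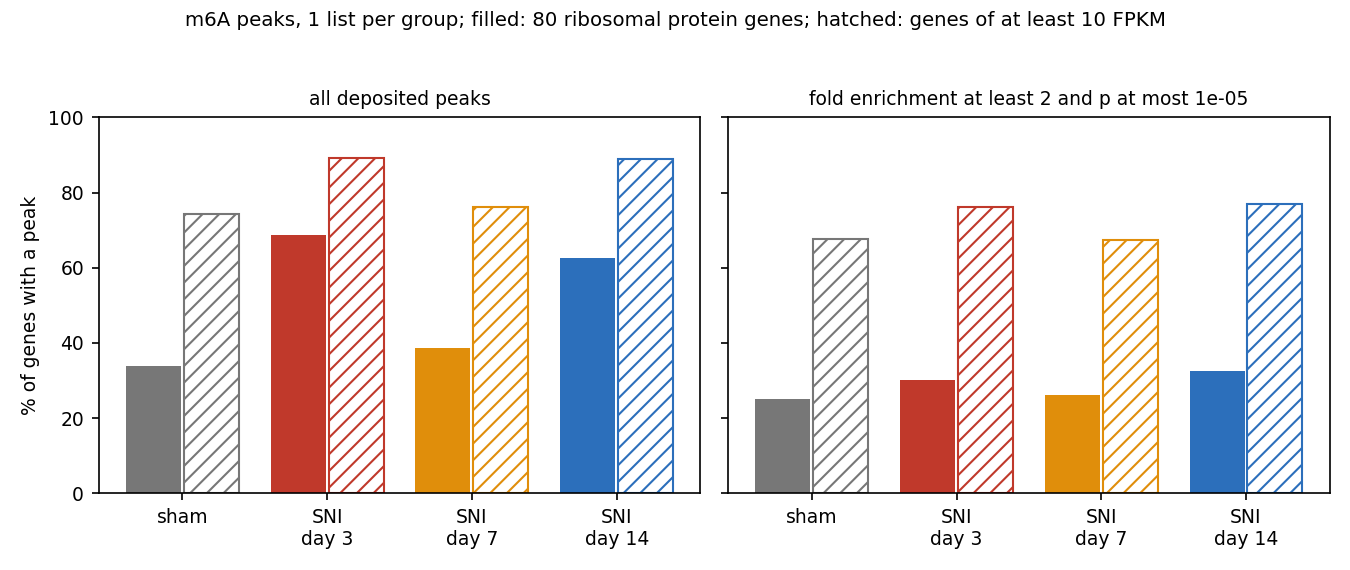
Share of genes with an m6A peak in the list of each group, for all deposited peaks (left) and for peaks of at least 2-fold enrichment and p at most 1e-05 (right). Filled bars are the 80 ribosomal protein genes (33.8%, 68.8%, 38.8% and 62.5% on the left) and hatched bars the 4150 genes of at least 10 FPKM (74.3%, 89.2%, 76.3% and 89.0%); there is 1 list per group and no error bar.

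By member, 23 genes had a peak in all 4 lists, 19 on day 3 and day 14 alone, 21 in none, and the other 17 in another combination. None of the 3 stalk genes had one, against 23 of 32 small subunit and 36 of 45 large subunit genes with a peak in any list. Shares of all genes with these combinations are not given here, so the counts only describe the members. All tested genes also had a peak more often on days 3 and 14 (85.5% and 85.1%) than in sham and on day 7 (74.4% and 76.6%). Of 22 members whose peaks overlapped at 1 site in all 4 lists, 16 had that site in a 3′ UTR by the annotation of the sham list. Among them, the Rpl22 peaks of days 3 and 14 were annotated as exon. Overall 72.7%, 64.0%, 62.2% and 67.2% of member peaks were in 3′ UTRs, against 48.4%, 50.7%, 49.3% and 51.5% of all peaks. Positions are those of the deposited lists, whose build is not given in the sources used here; for all 58 members with a promoter entry the GRCm38.p6 start lay within 1000 bases of the deposited gene span.

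Of the 22 shared sites, 12 had fold enrichments between 2 and 5 in every list. Rpl41, the smallest ribosomal protein, had a 3′ UTR site at chr10:128548113-128548587 with fold enrichments of 3.40 in sham and 4.01, 3.28 and 4.04 on days 3, 7 and 14. Rpl29 (chr9:106431271-106431568, 3′ UTR) had 2.13, 4.73, 3.77 and 4.57, and Rpl21 (chr5:146835540-146836018, 3′ UTR) 2.24, 4.09, 3.17 and 4.02, both lowest in sham. Rpl4 (chr9:64178306-64178546, 3′ UTR) had 3.16, 3.77, 4.03 and 6.30, and the lists give the neighbouring Snapc5 as its nearest gene. Rps6 (chr4:86854659-86854750, 3′ UTR) had 2.45, 3.16, 4.33 and 4.18, and Rpl28 (chr7:4794148-4794591, 3′ UTR) 2.49, 3.19, 2.35 and 3.22. Rpl38 (chr11:114668694-114668957) had 2.27, 2.95, 2.38 and 3.05, annotated as 5′ UTR in sham and on day 7. On days 3 and 14 its value is that of a longer peak, chr11:114668523-114672331, annotated as 3′ UTR. Rpl13a went the other way at chr7:45125646-45126176 in its 3′ UTR, with 4.73 in sham and 2.03, 2.18 and 2.14 after injury, and Rpsa at chr9:120131411-120131592 had 2.94, 2.28, 2.09 and 2.12. With no replicate peaks, none of these differences was tested.

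Fold enrichments above 9 were found in 8 members. The largest was 108 at chr5:146834935-146835333 in an exon of Rpl21, where the day 14 list alone held a peak. Rpl26, which lies near the exit tunnel, had an exonic site at chr11:68906723-68906989 with 8.87 in sham and 16.4, 36.6 and 6.50 on days 3, 7 and 14. Rps12 had peaks in the day 3 list alone, with 26.3 and 13.2 at 2 sites. Rpl21 and Rps12 have copies of higher level, as described above, so the origin of the reads at their peaks is uncertain. Rps28 had 22.5 in the day 7 list, 10.2 in sham and 7.47 on day 14, and none on day 3. Rpl13a had 15.4 in its 5′ UTR in sham and 3.43, 1.72 and 3.85 afterwards, so both of its sites were strongest in sham. The peak of Rps4l with the highest value was 13.0 in sham and 6.28, 6.82 and 5.26 afterwards, and a second, overlapping sham peak had 6.64. Rpl11, which with Rpl5 binds the p53 regulator MDM2, had 11.4 on day 14 and 2.03 in sham. Rps24 had 9.38 in the day 3 list, with a log10 p of only -1.97. Members with a peak in all lists, in some or in none had median day 3 log2 fold changes of 0.16, 0.19 and 0.18 without the 2 libraries, and median levels of 53.1, 53.7 and 56.9 FPKM.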

How the data were processed

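Input and m6A libraries were made from the same poly(A) RNA, and per the labels' protocols from fragmented RNA as stranded paired-end libraries. The authors deposited FPKM values per gene for 12 input libraries, with total FPKM of 180340 to 201358 per library, and 1 m6A peak list per group with a fold enrichment (a ratio) and scores that are the log10 of p and of the false discovery rate, all at p of 0.05 or less. The submitters' processing notes name HISAT2, StringTie, edgeR and ChIPseeker, and what called the peaks, on which build, is not given in the sources used here. Read depth is unknown, since no deposited file used here holds counts.

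The members and lists were chosen with earlier results of these data known. From the deposited FPKM, log2(FPKM + 0.5) of 15564 genes with a mean of at least 0.5 FPKM was fitted with limma 3.58.1 (trend, R 4.3.3) as 4 group means; fold changes are on that scale, which understates changes of low genes. P-values were adjusted over all genes within each contrast. The fit was checked on simulated data. Alternatives changed the pseudocount, filter, scaling and libraries, added the replicate number as a block, or averaged near-identical libraries. Peaks were tied to members by gene identifier. Same-numbered libraries deviated together for all 3 pairs between day 7 and sham (correlations of 0.46, 0.53 and 0.79), from the data and not the labels, and not in every pair of other groups. Libraries 1 and 2 also correlated across numbers (0.62 and 0.49), so the numbers do not single out pairs among them. Deviations were taken from group means, so a library 3 that stands apart in both groups by itself makes libraries 1 and 2 correlate. The check therefore cannot show pairing. Every member may be named; values in full are given for the stalk genes, Rpsa, members called or with the smallest p, the highest and lowest, those furthest off in the libraries apart, those with the strongest peaks and paralogs. Promoters were RefSeq entries of 300 bases. Some genes that these rules select are not reported here by name, and counts include them.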

Additional observations from a re-analysis of the deposited data

How the results depend on the processing

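With all 12 libraries the count of members called was 0 in every contrast. It stayed 0 under each pseudocount, filter and scaling, under the replicate block and when any 1 library was left out. Few genes of any kind were called in these settings. For day 3 against sham, leaving out 1 library called 3 to 18 of 15564 genes higher and 0 to 9 lower. The count of 0 is thus near the share of all genes and does not single out the members. Averaging into 6 samples left 1 sample each on days 3 and 14 and is used for effect sizes only. The count of members moved when both libraries that stood apart were left out. It was then 51, 9 and 20 against sham on days 3, 7 and 14. Between days it was 11 (day 7 against day 3), 1 (day 14 against day 7) and 16 (day 14 against day 3). A fit of the 2 groups alone gave 9 for day 14 against day 3 (all genes called lower 0.585%). The replicate block was fitted for all contrasts although the check could not show pairing for any of them, with libraries 1 and 2 also correlated across numbers. This block changed no call of a member, and all counts under it were 0.

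Leaving out 1 library moved the median log2 fold change between 0.19 and 0.38 on day 3, -0.010 and 0.23 on day 7 and 0.10 and 0.31 on day 14, between -0.28 and -0.08 for day 7 against day 3, 0.00 and 0.18 for day 14 against day 7, and -0.09 and -0.07 for day 14 against day 3. For the last, TPM rescaling gave -0.065 and quantile normalization -0.055. Strict peaks gave 24 members on day 3 and 26 on day 14. Of single genes, the day 7 fold change of Rpl13 ran from -0.17 to 0.54 and that of Rps29 from -0.39 to 0.79 as 1 library was left out, and the day 14 change of Rps24 from -0.0051 to 0.12; Rps24 was -0.0012 with averaging and -0.025 with quantile normalization. The cause was not tested. No scaling moved the median of all genes by more than 0.1.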
